A study of Mus musculus with 6 samples.

Results

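The genes described here encode the machinery that licenses DNA replication origins, together with the receptor of the ubiquitin ligase CRL4-Cdt2 and the sliding clamp on which that ligase recognises its substrates. They are 10 genes, *Orc1*, *Cdc6*, *Cdt1*, *Gmnn*, *Dtl*, *Mcm2*, *Mcm3*, *Mcm5*, *Mcm6* and *Pcna*, named from known function out of 19505 genes measured. The choice was made with earlier results of these data known. Each of the 10 had exactly 1 probe set, and none was lost to a filter. In *Rbx1*&*Sag*-deficient Treg cells *Gmnn*, *Mcm5*, *Cdc6* and *Pcna* rose by 2.91-fold, 2.74-fold, 2.51-fold and 2.05-fold over control cells. The other 6 did not pass the test. Each of the 10 had a higher mean in deficient than in control cells in the deposited values, as did 53.0% of all genes. *Mcm6* was the closest to equal in both groups, at 1.05-fold.

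Treg cells are the *Foxp3*-expressing CD4+ T cells that hold other immune cells in check. RNA of sorted CD4+YFP+ Treg cells from lymph nodes and spleen was hybridised to Clariom S mouse arrays, 3 for *Rbx1*&*Sag*-deficient cells and 3 for control cells, each array taking a pool of 2 to 3 mice aged 8 to 12 weeks. The deficient cells came from females that were Foxp3 Cre/wt with both Rbx1 fl/fl and Sag fl/fl, and the control cells from Foxp3 Cre/wt females, so that both groups carried the Cre-YFP allele and neither was free of it. Cre and YFP are made under *Foxp3*, which is X-linked, and these females therefore keep a population of Treg cells with no Cre, which the gate on YFP leaves out. Nothing in the labels says whether the pools shared litters or days, and the p-values therefore cover only the variation from pool to pool.

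Licensing is the loading of the inactive MCM helicase onto origins, which is confined to the time between mitosis and the start of S phase. The origin recognition complex, whose largest subunit is ORC1, recruits CDC6, and CDT1 then delivers the MCM ring. Geminin, the product of *Gmnn*, binds CDT1 and blocks further loading, and in S phase CRL4-Cdt2, built on a CUL4 scaffold with RBX1 as its RING subunit and the *Dtl* product as its receptor, ubiquitylates CDT1 that sits on chromatin-bound PCNA. Of the 10 genes, *Cdt1* is the one whose product is a textbook substrate of this ligase. The arrays measured mRNA, which says nothing of how fast a protein is degraded.

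Most of these genes are known targets of E2F transcription factors, and the letters of E2F sites are shown here because most of the genes share them. RefSeq promoter windows of mouse build GRCm38.p6, each with 250 bases before and 50 after an annotated start, were found for 9 of the 10 genes, *Gmnn* being named only. An E2F site was searched for as TTTCCCGC, TTTCGCGC, TTTGCCGC or TTTGGCGC on both strands, and the windows of 7 genes held at least 1, against 2.26% of all 32851 windows. The windows of *Mcm2* and *Pcna* held none. Each stretch below runs 5′ to 3′ on the gene's strand, with up to 30 bases on each side of the sites, which are in capitals.
*Orc1*, chr4:108579397-108579464, plus strand: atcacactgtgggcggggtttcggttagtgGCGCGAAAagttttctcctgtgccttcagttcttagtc
*Cdc6*, chr11:98907983-98908050, plus strand: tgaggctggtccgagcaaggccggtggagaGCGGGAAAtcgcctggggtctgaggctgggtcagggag
*Cdt1*, chr8:122568017-122568064, plus strand: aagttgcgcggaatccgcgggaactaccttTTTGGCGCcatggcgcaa
*Dtl*, chr1:191575515-191575582, minus strand: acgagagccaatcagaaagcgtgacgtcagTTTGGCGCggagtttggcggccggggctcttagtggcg
*Mcm3*, chr1:20820263-20820323, minus strand: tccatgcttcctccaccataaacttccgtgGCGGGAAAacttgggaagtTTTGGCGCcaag
*Mcm5*, chr8:75109326-75109397, plus strand: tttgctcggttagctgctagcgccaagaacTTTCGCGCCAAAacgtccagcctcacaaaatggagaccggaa
*Mcm6*, chr1:128359715-128359845, minus strand: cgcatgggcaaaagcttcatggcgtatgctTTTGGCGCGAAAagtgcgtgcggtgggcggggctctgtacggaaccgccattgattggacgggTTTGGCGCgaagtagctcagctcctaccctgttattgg

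The sites of *Orc1*, *Cdc6* and *Dtl* begin 27, 138 and 8 bases before the annotated start, and that of *Cdt1* begins 32 bases after it. *Mcm3* has 2 sites, 19 and 38 bases after its start. *Mcm5* has 2 that overlap, one read on each strand, so that the run of capitals is longer than a single site, and *Mcm6* has such an overlapping pair and another single site. At least 2 sites stood in 3 of the 9 windows, against 0.0974% of all windows. A second element of cell cycle promoters, the CHR, with the letters TTTGAA on either strand, was in 1 of the 9 windows, that of *Mcm2*, and in 17.9% of all windows. These matches describe letters in a window of 300 bases and do not show that a factor binds there.

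**Figure D1:**
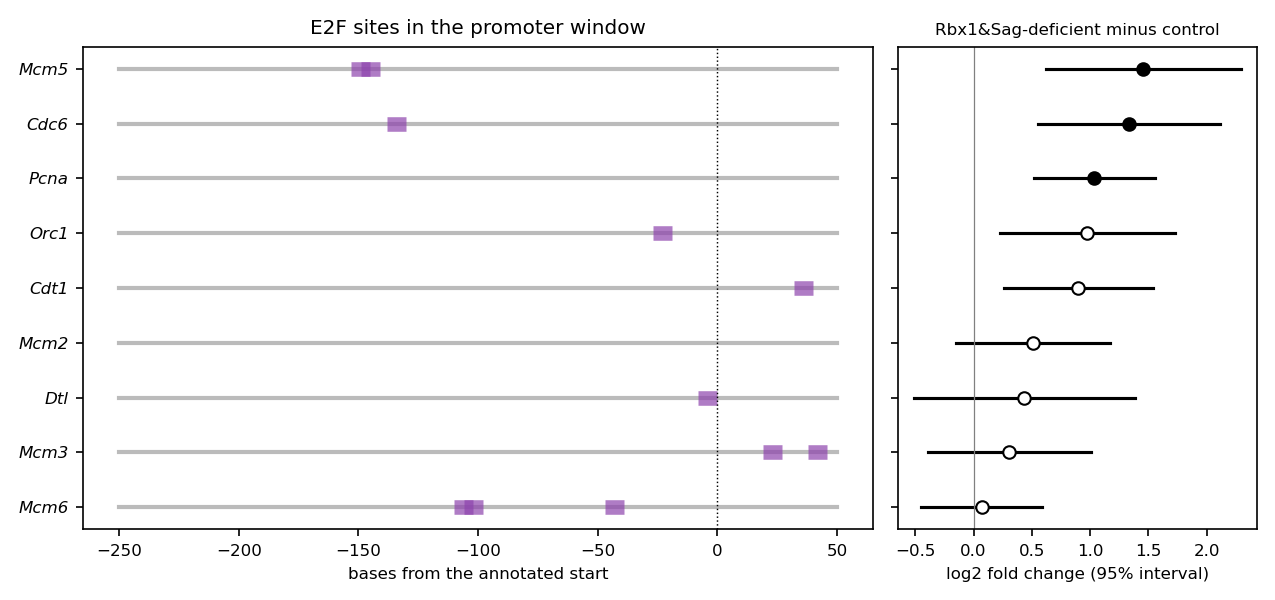
E2F site letters in the 9 promoter windows, drawn as distance in bases from the annotated start (x axis) for each gene (y axis). *Mcm6* has 3 sites, *Mcm3* and *Mcm5* have 2, *Orc1*, *Cdc6*, *Cdt1* and *Dtl* have 1, and *Mcm2* and *Pcna* have none.

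All values below are the deposited log2 signals, on which a difference of 1 is a doubling, and fold changes are *Rbx1*&*Sag*-deficient minus control. The targeted *Rbx1* fell by 4.24 ± 0.30 (standard error) with an adjusted p of 0.000237 from limma. For *Sag*, listed as *Rnf7*, the log2 fold change was -0.57 with an adjusted p of 0.379 from limma, and whether its probes lie within the deleted exons is not known. Array medians ran between 4.13 and 4.32 in *Rbx1*&*Sag*-deficient cells and between 4.0 and 4.11 in control cells, whereas upper quartiles ran between 6.93 and 7.37 in *Rbx1*&*Sag*-deficient cells and between 7.68 and 7.81 in control cells. Across all genes 527 rose and 1851 fell, so that the calls were 22.2% higher. This share was 10% after median centring, 42.2% after quantile and 41.9% after cyclic loess normalization. Centring on the brighter genes, those above the median signal, made it 88.4%. The sample titles carry the word muscle, but the mean of 5 skeletal muscle markers lay between 3.50 and 3.70 in *Rbx1*&*Sag*-deficient arrays and between 3.60 and 3.71 in control arrays, below every array's median. Singly, only 3 of the 5 lay below the array median on all 6 arrays. Of 7 Treg and CD4 T cell markers measured, 4 fell, and their mean level was 14.65 to 14.99 in *Rbx1*&*Sag*-deficient arrays and 15.51 to 15.78 in control arrays. *Foxp3* has no named probe set. Myeloid markers (3 of 7 fell, mean level 3.28 to 3.39 in *Rbx1*&*Sag*-deficient and 3.71 to 4.37 in control arrays) moved with the groups too. So did the mean levels of CD8 T and natural killer markers, of which 2 of 6 fell (4.17 to 4.82 in *Rbx1*&*Sag*-deficient and 5.12 to 5.40 in control arrays), and of B cell markers, of which 1 of 4 fell (3.79 to 3.96 in *Rbx1*&*Sag*-deficient and 4.11 to 4.16 in control arrays). Yet 2 of 7 myeloid, 2 of 6 CD8 T and natural killer and 2 of 4 B cell markers had a positive log2 fold change. The median log2 fold change was -0.58 for the myeloid, -0.02 for the CD8 T and natural killer and 0.165 for the B cell markers. The part of these shifts in the results below was not tested.

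Of the 10 genes, 4 rose at an adjusted p under 0.05 from limma, and 2.7% of all 19505 genes did. The 10 were chosen with earlier results of these data known, so the shares given here describe the genes and test nothing. None of the 10 fell, at an adjusted or an unadjusted p under 0.05 from limma or by the methods' t-test, and 9.49% of all genes fell at the adjusted threshold. In 5 genes all 3 *Rbx1*&*Sag*-deficient arrays read above all 3 control arrays, which was so for 15.2% of all genes. In none of the 10 did all deficient arrays read below all control arrays, as they did in 19.7% of all genes. With only 10 genes, the absence of falls beside these shares is not read as a result. At an unadjusted p under 0.05 from limma 6 were higher, against 11.4% of all genes. The median log2 fold change of the 10 was 0.94, with a range of 0.07 to 1.54, and that of all genes was 0.04. With 3 arrays in each group an exact permutation test, two-sided, cannot give a p below 0.1, which the 5 genes without overlap reached.

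**Figure D2:**
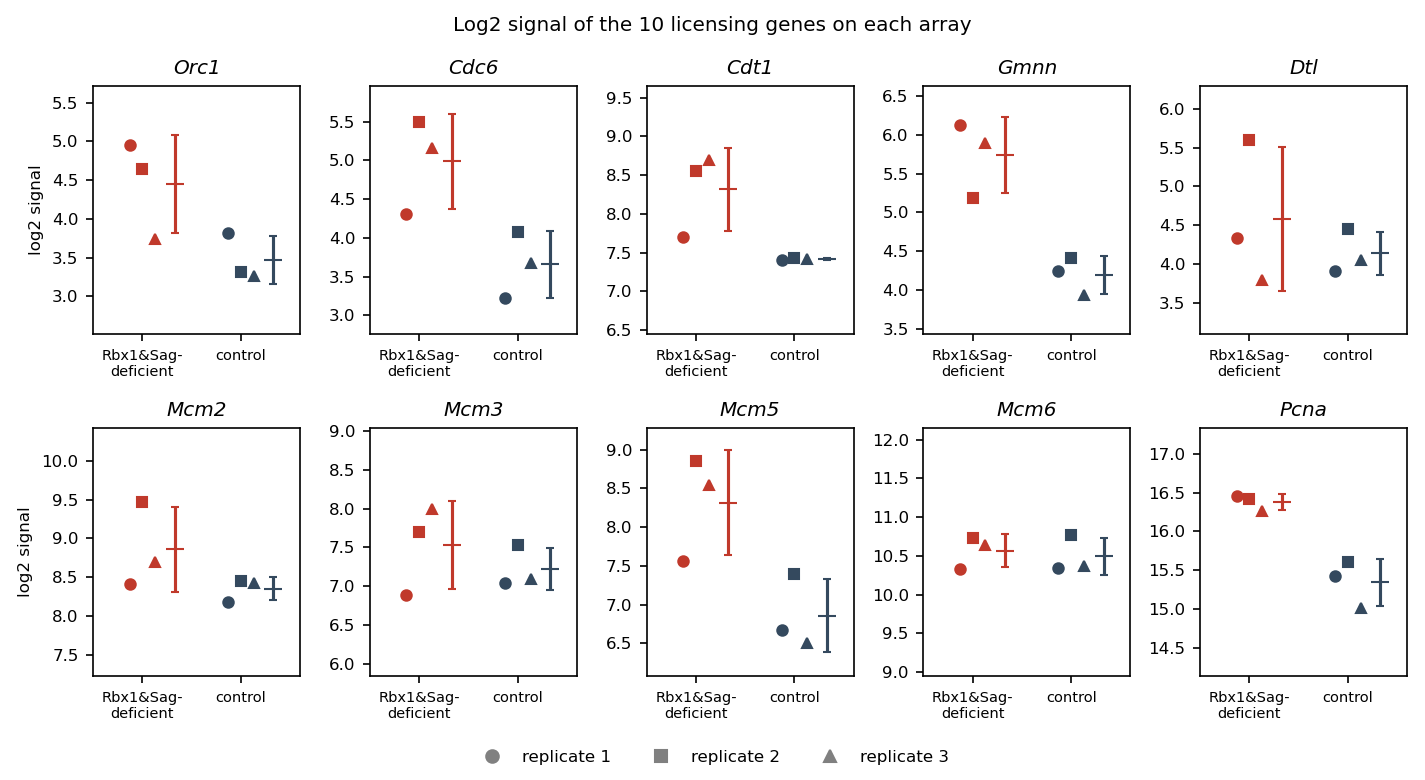
Deposited log2 signal (y axis) of the 10 genes on each array, a symbol for each replicate number, with *Rbx1*&*Sag*-deficient arrays to the left of control arrays in each panel and the mean ± SD of the 3 arrays beside the points. *Gmnn*, *Cdc6*, *Mcm5*, *Pcna* and *Cdt1* show no overlap between the groups, and the other 5 do.

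*Orc1* and *Cdc6* encode ATPases that mark the origin and help to load the helicase. *Orc1* read 4.96, 4.64 and 3.74 in *Rbx1*&*Sag*-deficient replicates 1, 2 and 3 and 3.82, 3.32 and 3.27 in control replicates 1, 2 and 3. The deficient replicate 3 lay below the control replicate 1, so that the groups overlapped. Its log2 fold change was 0.98 (95% interval 0.23 to 1.72), with an adjusted p of 0.0864 from limma. It passed without deficient replicate 3 (1.33, adjusted p = 0.0133 from limma), but not when any other single array was left out. Of 16 other settings, 4 gave a call for *Orc1* and 12 did not. *Cdc6* read 4.31, 5.50 and 5.16 in *Rbx1*&*Sag*-deficient replicates and 3.22, 4.08 and 3.68 in control replicates. Every deficient array was above every control array, and *Cdc6* rose by 1.33 (95% interval 0.55 to 2.11, adjusted p = 0.0386 from limma). The call of *Cdc6* was lost after median centring, quantile and cyclic loess normalization (adjusted p of 0.0709, 0.0930 and 0.0660 from limma). When single arrays were left out, it was kept only without deficient replicate 1. *Orc1* lay below its array's median on 4 of the 6 arrays and *Cdc6* on 2, a range of signal in which background limits how large a difference can be read.

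*Cdt1*, the helicase loader and ligase substrate, read 7.70, 8.55 and 8.70 in *Rbx1*&*Sag*-deficient replicates, against 7.40, 7.43 and 7.42 in control replicates. The control arrays were almost level and the deficient arrays were spread out above them, at 8.32 ± 0.54 in *Rbx1*&*Sag*-deficient and 7.42 ± 0.015 in control cells (SD, n = 3 each). The log2 fold change of *Cdt1* was 0.90 (95% interval 0.26 to 1.54), equal to 1.87-fold, and missed the threshold with an adjusted p of 0.0702 from limma. Deficient replicate 1 lay only 0.27 above the highest control array. Without it the log2 fold change was 1.21 and passed (adjusted p = 0.0210 from limma). It passed as well after quantile normalization (1.48, adjusted p = 0.0262 from limma) and cyclic loess normalization (1.44, adjusted p = 0.0205 from limma). It did not pass after median centring (0.72, adjusted p = 0.137 from limma) or when any other single array was left out. Of 17 other settings, 4 gave a call and 13 did not.

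*Gmnn* encodes geminin, the inhibitor of CDT1, and had the largest fold change of the 10. It read 6.13, 5.19 and 5.89 in *Rbx1*&*Sag*-deficient replicates and 4.24, 4.41 and 3.93 in control replicates. The groups were 0.78 apart at their nearest arrays. *Gmnn* rose by 1.54 (95% interval 0.90 to 2.19, adjusted p = 0.0114 from limma). Its call was lost without control replicate 3 (1.41, adjusted p = 0.0609 from limma) and was kept when any other array was left out, which was so for no other gene of the 10.

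*Dtl*, whose product Cdt2 brings substrates to the CUL4 ligase, read 4.33, 5.60 and 3.79 in *Rbx1*&*Sag*-deficient replicates and 3.91, 4.45 and 4.05 in control replicates. Deficient replicate 3 was the lowest of all 6 arrays and deficient replicate 2 the highest. The log2 fold change of 0.44 (95% interval -0.51 to 1.38, adjusted p = 0.516 from limma) thus rests on deficient replicate 2, without which it was -0.08. The interval is wide enough to hold both a fall and a doubling.

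The MCM proteins form the ring that unwinds DNA, and 4 of its genes were among the 10. *Mcm5* read 7.56, 8.85 and 8.54 in *Rbx1*&*Sag*-deficient replicates and 6.67, 7.40 and 6.51 in control replicates. The groups did not overlap, with 0.16 between their nearest arrays, and *Mcm5* rose by 1.46 (95% interval 0.62 to 2.29, adjusted p = 0.0359 from limma). The call of *Mcm5* was lost after median centring (adjusted p = 0.0594 from limma). When single arrays were left out, it was kept only without deficient replicate 1. *Mcm2* read 8.41, 9.47 and 8.70 in *Rbx1*&*Sag*-deficient replicates and 8.18, 8.45 and 8.42 in control replicates. *Mcm3* read 6.89, 7.70 and 7.99 in *Rbx1*&*Sag*-deficient replicates and 7.04, 7.53 and 7.09 in control replicates. Deficient replicate 1 lay among the control arrays for *Mcm2* and below all of them for *Mcm3*. Their log2 fold changes were 0.51 for *Mcm2* (95% interval -0.15 to 1.17, adjusted p = 0.271 from limma) and 0.31 for *Mcm3* (95% interval -0.39 to 1.01, adjusted p = 0.539 from limma).

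*Mcm6* read 10.33, 10.73 and 10.64 in *Rbx1*&*Sag*-deficient replicates and 10.35, 10.77 and 10.37 in control replicates, so that the highest array of all was a control and the lowest a deficient one. Its log2 fold change was 0.07 (95% interval -0.45 to 0.59, adjusted p = 0.866 from limma) and turned to -0.11 after median centring. Whether *Mcm5* and *Mcm6* differ in their change was not tested. *Mcm4*, a further subunit looked at after its values were seen, read 9.46, 10.61 and 9.40 in *Rbx1*&*Sag*-deficient replicates and 9.25, 9.27 and 9.0 in control replicates. Its groups did not overlap, yet the log2 fold change of 0.65 did not pass (adjusted p = 0.220 from limma).

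*Pcna* encodes the clamp that tethers DNA polymerases and displays CDT1 to CRL4-Cdt2. It was bright on every array, at 16.46, 16.42 and 16.27 in *Rbx1*&*Sag*-deficient replicates and 15.43, 15.60 and 15.01 in control replicates. The deficient arrays were tightly grouped and stood 0.67 or more above the controls, and *Pcna* rose by 1.04 (95% interval 0.52 to 1.56, adjusted p = 0.0228 from limma). The call of *Pcna* was lost without control replicate 1, 2 or 3 or deficient replicate 1. *Pcna* and *Mcm6* were the exceptions to a wider spread in deficient cells, which 8 of the 10 genes and 68.8% of all genes showed.

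The 3 deficient arrays did not rank alike across the genes. Replicate 2 was the highest deficient array for 5 genes (*Cdc6*, *Dtl*, *Mcm2*, *Mcm5* and *Mcm6*), replicate 1 for 3 (*Orc1*, *Gmnn* and *Pcna*) and replicate 3 for 2 (*Cdt1* and *Mcm3*). Replicate 1 was the lowest for 6 genes. The 4 calls depended on single arrays. Of the 10 genes, 1, 1 and 0 passed without control replicates 1, 2 and 3, while 4, 2 and 3 passed without deficient replicates 1, 2 and 3. The share of all genes called higher moved as well, from 2.7% with all arrays. It was 0.625%, 0.395% and 0.39% without control replicates 1, 2 and 3, and 1.47%, 5.19% and 2.62% without deficient replicates 1, 2 and 3. Over these 6 refits the log2 fold change stayed between 1.35 and 1.82 for *Gmnn*, 1.19 and 1.83 for *Mcm5*, 1.07 and 1.67 for *Cdc6* and 0.87 and 1.16 for *Pcna*. With the methods' t-test 5 genes, *Cdt1* among them, had an unadjusted P under 0.05 and a fold change above 1.5, against 5.75% of all genes, and 0 of the 10 passed after Benjamini-Hochberg adjustment.

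How the arrays were scaled against each other changed the size and the call more than the direction. Median centring gave 2 calls (*Gmnn* and *Pcna*), quantile and cyclic loess normalization gave 5 each (*Gmnn*, *Pcna*, *Mcm5*, *Mcm2* and *Cdt1*) and centring on the brighter genes gave 9, all but *Mcm6*. Of all genes, 1.43% were called higher after median centring, 2.74% after quantile and 3.24% after cyclic loess normalization. Centring on the brighter genes moved the median of all genes to 0.64, from which the median of the 10 genes, 1.53, has to be read, and it called 35.7% of all genes higher. The median of the 10 was 0.76 after median centring, against -0.14 over all genes. Quantile normalization gave 1.18, against 0.02 over all genes, and cyclic loess normalization 1.15, against 0.01. All 10 kept a positive log2 fold change under each scaling, apart from *Mcm6* after median centring.

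**Figure D3:**
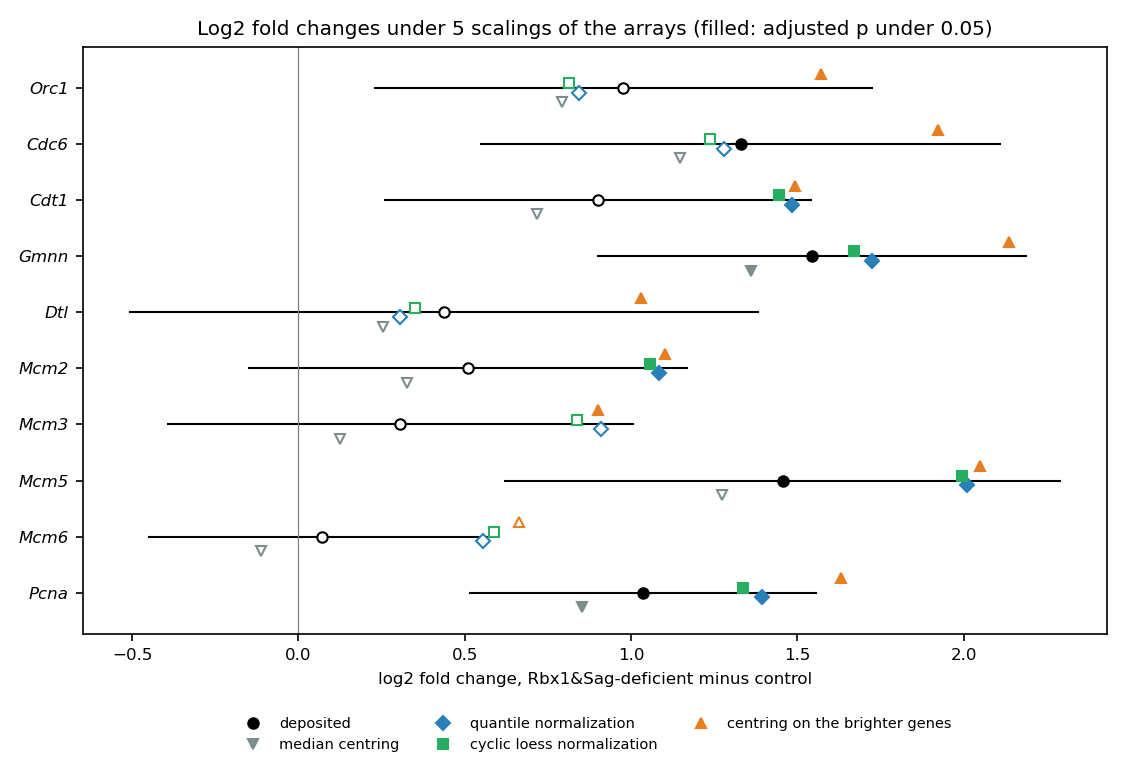
Log2 fold change (x axis, *Rbx1*&*Sag*-deficient minus control) of the 10 genes under the deposited values and 4 other scalings, filled where the adjusted p from limma is under 0.05, with the 95% interval for the deposited values as a line. *Gmnn* and *Pcna* are filled under every scaling, and *Mcm6* under none.

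The E2F letters stood both in genes that rose and in genes that did not pass. Of the 4 genes that rose, the windows of *Cdc6* and *Mcm5* held the site, that of *Pcna* did not, and *Gmnn* had no window. *Orc1*, *Cdt1*, *Dtl*, *Mcm3* and *Mcm6* held it and did not pass, and *Mcm6*, with 3 sites, had the smallest fold change. The genes most like 2 of the patterns were sought among the genes above the median signal, by Pearson's r over the 6 arrays, which is a description of arrays that also differ by group. Nearest to *Cdt1* were *Olfr433* (r = 0.98), an olfactory receptor gene, *Ctps* (r = 0.98), which encodes a CTP synthase, and *Baz2b* (r = 0.98), a bromodomain gene. Nearest to the mean of *Mcm2*, *Mcm3*, *Mcm5* and *Mcm6* were *Casp8ap2* (r = 0.99), needed for histone mRNA processing, the proteasome subunit *Psma2* (r = 0.98) and *Bicc1* (r = 0.96), an RNA-binding protein. That mean read 8.30, 9.19 and 8.97 in *Rbx1*&*Sag*-deficient replicates and 8.06, 8.54 and 8.10 in control replicates, where the groups overlapped.

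The genes around these 10 were followed through 12 lists from general knowledge, each without the 10 themselves. The lists were drawn up with earlier results of these data known. A list is described by its counts and median beside the 2.7% higher, the 9.49% lower and the median of 0.04 over all genes. Of 11 other genes of the pre-replicative complex, 0 rose and 2 fell at the adjusted threshold of limma, the ORC-binding *Lrwd1* (-1.42, adjusted p = 0.0228) and *Grwd1* (-1.07, adjusted p = 0.0310), and at an unadjusted p 0 were higher and 4 lower. Their median was -0.11, but 0.36 after quantile and 0.39 after cyclic loess normalization, which gave 1 higher and 1 lower. Without control replicates 2 or 3 none of them passed. *Lrwd1* and *Grwd1* lost their calls after centring on the brighter genes, and *Lrwd1* also after quantile and cyclic loess normalization. *Grwd1* was below the array median on 3 arrays, where background limits the difference that can be read. Of 17 genes of origin firing, 3 rose by limma, *Mcm10* (1.67, adjusted p = 0.0391), which helps to start the helicase, the GINS subunit *Gins2* (1.16, adjusted p = 0.0201) and *Dbf4* (0.86, adjusted p = 0.0484), the activator of the kinase CDC7, and 1 fell, *Mtbp* (-0.76, adjusted p = 0.0476), a partner of treslin. None of these 17 passed when control replicate 1, 2 or 3 or deficient replicate 1 was left out. *Mtbp* also lost its call after quantile normalization, cyclic loess normalization and centring on the brighter genes. *Mcm10* lost its call after quantile normalization and *Dbf4* after median centring. The median of the 17 was 0.18, and 0.32 after quantile normalization.

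In the ligase itself, *Rbx1* was the only 1 of 8 core genes measured that passed. The median of the 8 was -0.17, but 0.35 after quantile normalization. *Cul4a*, a scaffold of CRL4 looked at after its values were seen, read 6.63, 6.73 and 7.37 in *Rbx1*&*Sag*-deficient replicates and 7.72, 7.46 and 7.92 in control replicates. All deficient arrays were lower, with a log2 fold change of -0.79 (adjusted p = 0.0827 from limma). Of 4 other targets of the ligase, known as such mainly from human cells, *Pold4*, a small subunit of DNA polymerase delta, fell by 2.53 (adjusted p = 0.00603 from limma) and *Fbh1*, a helicase, fell by 1.36 (adjusted p = 0.0239 from limma). The call of *Fbh1* was lost without control replicate 1, 2 or 3 or deficient replicate 1, whereas *Pold4* kept its call without any 1 array. *Fbh1* also lost its call after quantile normalization, cyclic loess normalization and centring on the brighter genes (adjusted p of 0.0941, 0.0615 and 0.0526 from limma). *Pold4* kept its call under these scalings. *Cdkn1a*, the CDK inhibitor p21 and also such a target, was singled out after its values were seen. It read 3.95, 7.17 and 4.95 in *Rbx1*&*Sag*-deficient replicates and 2.90, 3.42 and 3.71 in control replicates. Its deficient arrays were all above the controls and far apart from each other, with a log2 fold change of 2.01 (adjusted p = 0.0842 from limma). *Cdkn1a* was below the array median on 4 arrays, where background limits the difference that can be read. Without deficient replicate 1, 1 of the 4 targets passed as higher and 1 as lower. The median of the 4 was -0.71, and -0.305 after quantile normalization. Among 8 genes listed for ubiquitin ligases other than CRL4-Cdt2, the F-box gene *Fbxw7* alone passed, and fell by 1.86 (adjusted p = 0.00891 from limma). The median of these 8 was -0.44, but 0.06 after quantile normalization.

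Replication fork genes also moved both ways. Of 24 DNA polymerase and PCNA client genes the median was 0.51, with 3 higher and 2 lower, and it was 0.33 after median centring and 0.84 after quantile normalization. *Pole*, the catalytic subunit of the leading strand polymerase, read 5.41, 6.01 and 5.95 in *Rbx1*&*Sag*-deficient replicates and 3.57, 4.14 and 4.62 in control replicates, and rose by 1.68 (adjusted p = 0.0110 from limma). *Pole* was below the array median on 1 array. *Lig1*, the ligase that joins Okazaki fragments, read 8.07, 8.21 and 7.44 in *Rbx1*&*Sag*-deficient replicates and 6.36, 6.75 and 6.09 in control replicates, and rose by 1.51 (adjusted p = 0.0116 from limma). In both genes all deficient arrays were above all control arrays. The histone chaperone subunit *Chaf1b* rose (1.19, adjusted p = 0.0361 from limma), while *Pold4* and *Pole4* (-1.05, adjusted p = 0.0497 from limma), both small polymerase subunits, fell. *Pold4* is counted in both lists, and *Pole4* was named after its values were seen. When control replicate 1, 2 or 3 was left out, 1 of the 24 was higher and 1 lower in each case, *Lig1* missing without control replicates 1 and 3 and *Pole* without control replicate 2. After quantile or cyclic loess normalization 8 were higher and 1 lower. Of 10 genes that load or unload PCNA, with a median of 0.15 and of 0.53 after quantile normalization, *Dscc1* passed (1.43, adjusted p = 0.0458 from limma). It was below the array median on 4 arrays and lost its call without any 1 control replicate or without deficient replicate 1 or 3. Its call was also lost after median centring, quantile and cyclic loess normalization.

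Of 17 E2F and pocket protein genes, 2 rose and 4 fell. *E2f8*, an E2F that represses, read 6.02, 7.76 and 7.01 in *Rbx1*&*Sag*-deficient replicates and 4.07, 4.13 and 4.21 in control replicates. The groups were far apart, and *E2f8* rose by 2.79 (standard error 0.39, adjusted p = 0.00344 from limma). *E2f8* was below the array median on 1 array. Its relative *E2f7*, named after its values were seen, rose as well (1.71, adjusted p = 0.0273 from limma). The 4 that fell were *E2f6* (-1.94, adjusted p = 0.00673 from limma), another repressor, the pocket protein *Rbl2* (-1.52, adjusted p = 0.0155 from limma), *E2f4* (-1.03, adjusted p = 0.0209 from limma) and *Lin37* (-1.11), a subunit of the DREAM complex, the last of these named after its values were seen. *E2f8* and *E2f6* kept their calls without any 1 array, while *Rbl2* lost its call without control replicates 2 or 3 and *E2f4* without any control replicate or deficient replicate 1. Without control replicates 1, 2 and 3 the list held 1 higher each time and 2, 1 and 1 lower. After quantile normalization 2 were higher and 1, *E2f6*, lower. The median of the 17 was -0.19, but 0.35 after quantile normalization.

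**Figure D4:**
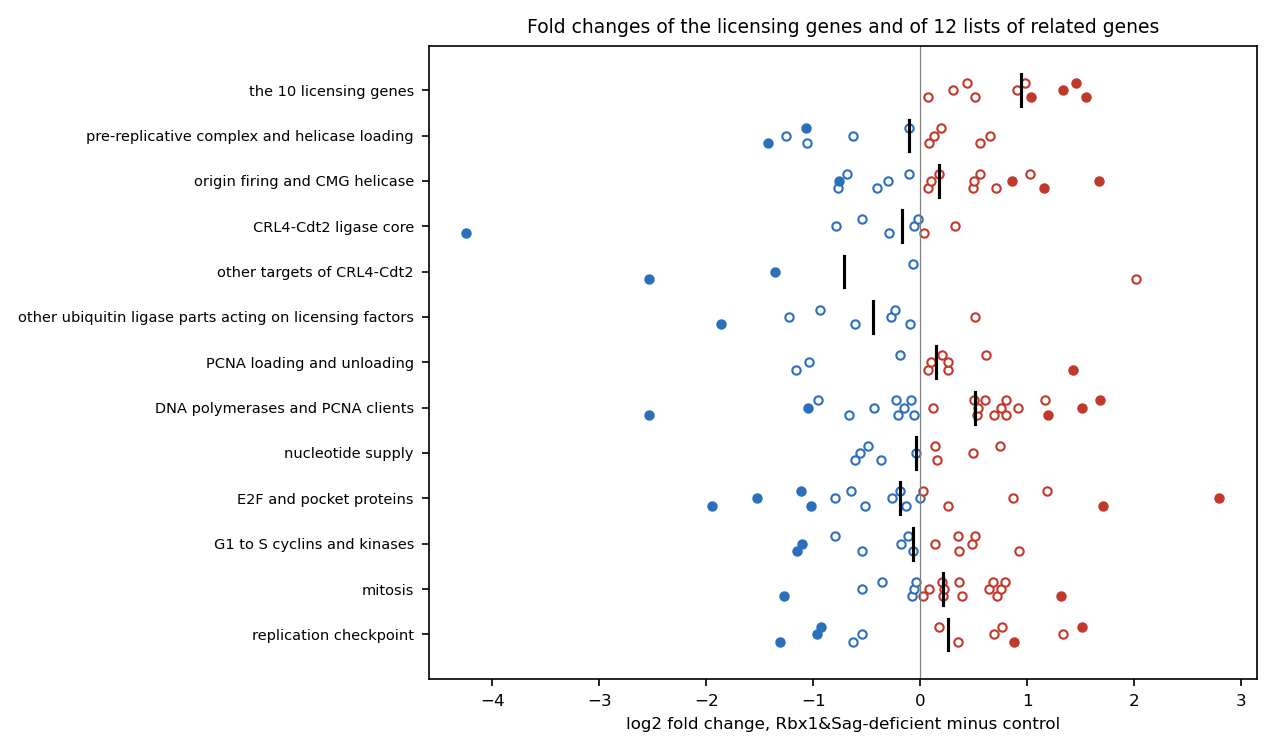
Log2 fold changes (x axis, *Rbx1*&*Sag*-deficient minus control) of the measured genes of each list (y axis), red above 0 and blue below, filled where the adjusted p from limma is under 0.05, with the median of each list as a bar. The 10 licensing genes have a median of 0.94, and the medians of the 12 other lists lie between -0.71 and 0.51.

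Checkpoint genes went both ways. Of 12 genes of the replication checkpoint, 2 rose and 3 fell. Their median was 0.26, and 0.15 after quantile normalization. *Brca1*, a repair gene, read 4.86, 5.63 and 5.47 in *Rbx1*&*Sag*-deficient replicates and 3.75, 4.02 and 3.66 in control replicates and rose by 1.51 (adjusted p = 0.00890 from limma). It lost its call without control replicate 3 (adjusted p = 0.0515 from limma) and was below the array median on 2 arrays. *Rad9a* (-0.93, adjusted p = 0.0257), *Rad1* (-1.31, adjusted p = 0.0326) and *Hus1* (-0.96, adjusted p = 0.0374), which encode the 3 subunits of a checkpoint clamp shaped like PCNA, fell by limma, and all deficient arrays were below all control arrays in each. Quantile and cyclic loess normalization left none of these 3 past the threshold, and neither did leaving out control replicate 2 or 3. Of 19 mitosis genes, *Nusap1* rose (1.32, adjusted p = 0.0176 from limma) and *Ccnb2*, a mitotic cyclin, fell (-1.28, adjusted p = 0.0150 from limma). *Nusap1* lost its call without control replicate 1 or 3, and *Ccnb2* without control replicate 2 or 3. *Ccnb2* also lost its call after quantile normalization, cyclic loess normalization and centring on the brighter genes. The median of the 19 was 0.21, and 0.03 after quantile normalization. *Mki67*, the usual marker of cycling cells and looked at after its values were seen, read 7.93, 10.24 and 9.58 in *Rbx1*&*Sag*-deficient replicates and 8.05, 8.80 and 8.65 in control replicates. Deficient replicate 1 was the lowest array and the others the highest, with a log2 fold change of 0.75 (adjusted p = 0.360 from limma). In bulk samples a larger share of cells in S phase and more of a transcript in each cell cannot be told apart.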

How the data were processed

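RNA of 6 pooled Treg cell samples was measured on Clariom S mouse arrays. The authors deposited log2 signals of 22206 probe sets, which per the labels were made with Expression Console 1.4. Algorithm, annotation and genome build: not given in the sources used here. The platform's annotation gave 1 symbol to 19572 probe sets, none to 2634 and several to 0. The probe set with the highest mean was kept for each symbol, leaving out 67 and giving 19505 genes, all of which matched RefSeq symbols.

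*Rbx1*&*Sag*-deficient and control samples were compared with limma 3.58.1 in R 4.3.3 (lmFit and eBayes, no covariates, two-sided, Benjamini-Hochberg adjustment over 19505 genes), on values as deposited. The fit was tested on simulated data. The members and lists were chosen with earlier results of these data known. Named genes were the 10 members, the targeted genes, up to 4 passing genes with the smallest p in each list, and the genes of the pattern search. Others are said to be chosen after their values were seen.

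The fit was repeated with the methods' t-test, an intensity trend, robust moderation, array weights, median centring, quantile and cyclic loess normalization, centring on the brighter genes (the 9747 whose signal exceeds the median), these genes alone, every probe set, replicate number as a block, and each array left out. The number of arrays limits the precision.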

Additional observations from a re-analysis of the deposited data

How the results depend on the processing

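Over 169 log2 fold changes of the 10 genes under these settings, 129 kept direction and side of the threshold, 23 lost the call, 13 gained it and 4 reversed. *Dtl* reversed at -0.077 without *Rbx1*&*Sag*-deficient replicate 2, in a range of -0.077 to 0.828 when each array was left out. *Mcm6* reversed at -0.11 after median centring, -0.0033 without control replicate 1 and -0.012 without deficient replicate 2. Its range was -0.012 to 0.207 when each array was left out, and -0.11 to 0.66 over all settings. The 4 licensing genes called higher became 0 with the methods' t-test, 2 with median centring and 9 when centred on brighter genes, and 0 to 4 when each array was left out. Over all genes the 527 higher became 7 with the methods' t-test, 279 with median centring, 6966 when centred on brighter genes and 324 among the genes above the median signal, with 76 to 1012 when each array was left out. The 1851 lower became 23 with the methods' t-test, 733 after quantile normalization, 876 after cyclic loess normalization and 910 when centred on brighter genes, with 544 to 2611 when each array was left out. The methods' t-test estimates the spread of each gene from its own 6 arrays, and leaving out an array leaves fewer samples. Both counts nevertheless rose without deficient replicate 2, to 1012 higher and 2611 lower. The cause of the shifts was not tested for any of these settings. The labels give both groups the same replicate numbers, but samples of the same number did not deviate together (correlations of 0.01, 0.11 and 0.02), and with replicate number as a block 534 genes were higher, 2010 lower and 5 of the 10 licensing genes higher, *Orc1* being added. *Orc1*, *Cdc6*, *Dtl* and *Gmnn* lay below the array median on 1 to 4 arrays, where signal over background limits the fold changes.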

Other observations

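Of 13 genes for cyclins and kinases of the passage into S phase, 2 fell, *Cdk4* (-1.15, adjusted p = 0.0454 from limma) and *Ccnd2* (-1.11, adjusted p = 0.0279 from limma), partners in an early kinase of the cycle. Both lost their calls without any 1 control replicate and after quantile, cyclic loess and brighter-gene scaling. The median of the 13 was -0.07, but 0.34 after quantile normalization. Of 9 genes that supply nucleotides, 0 passed at the adjusted threshold of limma or of the methods' t-test, while 1 was higher at an unadjusted p under 0.05 by each. Their median log2 fold change was -0.04, and 0.30 after quantile and 0.34 after cyclic loess normalization.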
